A study of Mus musculus with 6 samples.

Results

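The nuclear genes of respiratory complexes II to V were examined in total RNA from whole hippocampus of C57B1/6J mice (strain as the labels spell it) at postnatal day 30. The series holds 3 libraries from wild-type mice and 3 from mice labelled as PTCHD1 mutants, and no treatment is given for either group. The labels do not state which part of Ptchd1 is altered, the sex of the mice, or that each library came from a separate animal, and p-values therefore reflect only how much these libraries vary, which may be technical. Members were chosen by gene symbol: Sdha to Sdhd, symbols that begin with Uqcr, Cyc1, Cycs, symbols that begin with Cox and a digit, and symbols that begin with Atp5. This gave 58 of the 25785 gene names in the deposited table. Where a name had several transcripts, the one with the highest mean over the 6 libraries stood for the gene.

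The inner membrane of the mitochondrion carries the respiratory chain. Complex II, succinate dehydrogenase, takes electrons from succinate in the tricarboxylic acid cycle, complex III passes electrons from ubiquinol to cytochrome c, and complex IV, cytochrome c oxidase, passes them to oxygen. Complexes III and IV move protons across the membrane, and complex V, the ATP synthase, uses the return flow through its membrane part, Fo, to turn its catalytic part, F1, which makes ATP. Neurons draw most of their ATP from this pathway, and much of it is spent on ion pumping after synaptic activity. Complex II is encoded wholly in the nucleus, whereas the other complexes also hold subunits encoded in mitochondrial DNA, which were not analysed here.

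Values are given as normalized read equivalents, the authors' normalized signal divided by 42, a read length inferred from the values. Libraries held 12450701 to 23749087 read equivalents before normalization. Ptchd1 itself stood at 323, 389 and 411 read equivalents in the wild-type libraries and at 181, 150 and 130 in the mutant libraries, so the groups did not overlap. Its log2 change was -1.28 (SE 0.14, limma adjusted p = 0.0342), and the limma adjusted p was 0.0644 without the first wild-type library, 0.371 without the third and 0.223 without the second mutant library. The hippocampal label was checked on Neurod6, a pyramidal neuron marker, at 4199 to 5142 read equivalents, and on Prox1, a dentate granule neuron marker, at 1161 to 1556.

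Of the 58 members, 53 reached a mean of 10 read equivalents over the 6 libraries and were tested. Atp5g2, Atp5l, Cox7b2, Cox8b and Cox8c did not. Log2 change is the mutant minus the wild-type mean of log2(read equivalents + 1), and p-values come from limma with Benjamini-Hochberg adjustment over 15717 tested genes. No member passed the adjusted threshold of 0.05 (0 of 53), and over all tested genes Ptchd1 alone did, which is 0.00636%. At an unadjusted p under 0.05, 22 members were lower and 2 were higher in the mutants, against 9.7% lower and 9.01% higher over all tested genes. The log2 change was negative for 43 members and positive for 10, with a median of -0.14, against 53.2% negative and a median of -0.02 over all tested genes. In 15 members every mutant library lay below every wild-type library, and in 3 every mutant library lay above, against 12% and 12.3% of all tested genes. With p-values from the authors' deposited table, adjusted over the same genes, 8 members were lower and 1 was higher, against 3.23% and 4.57%.

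**Figure D1:**
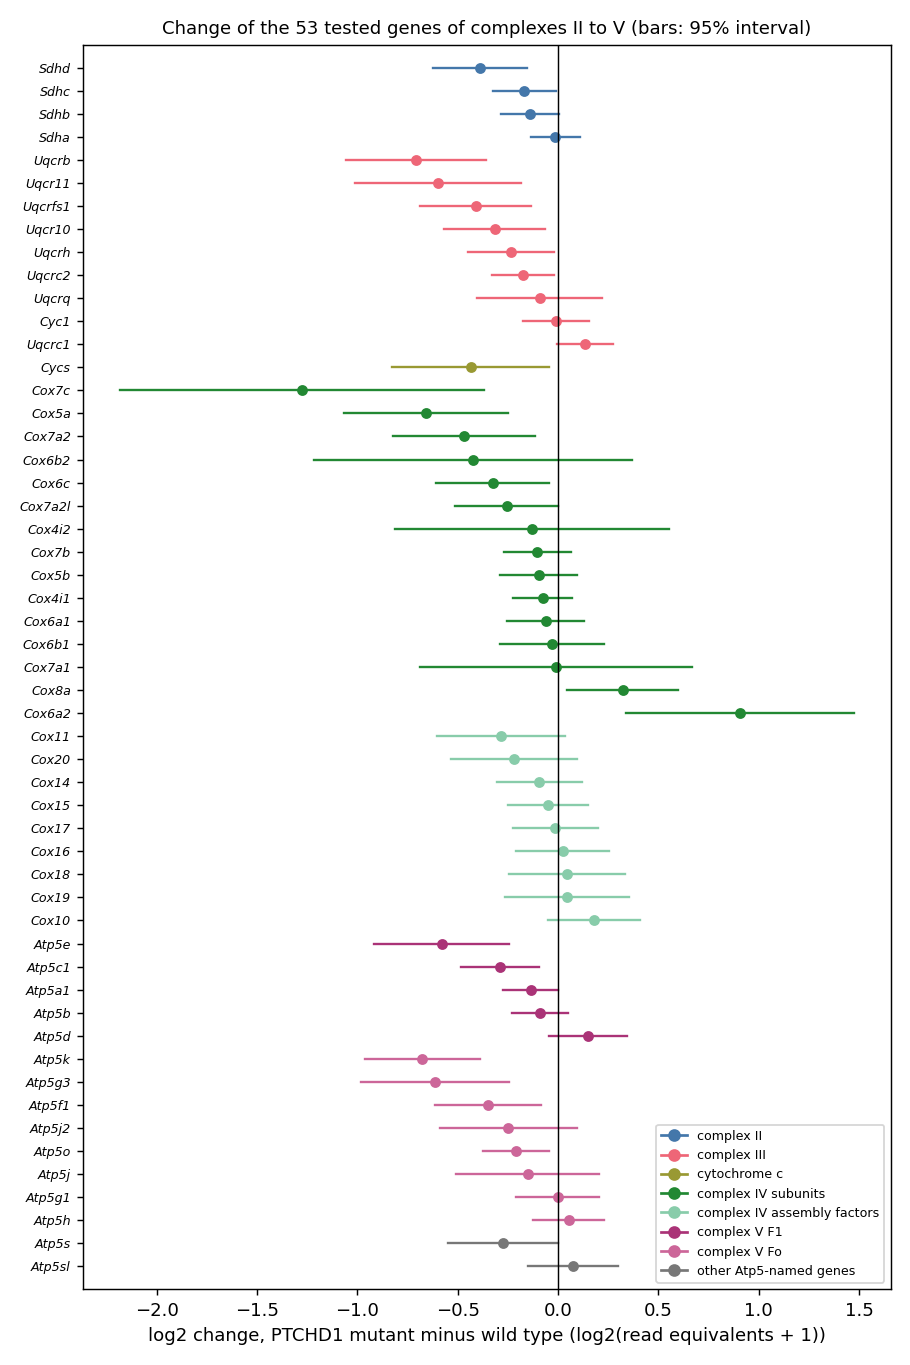
Log2 change (mutant minus wild type, x axis) of each of the 53 tested members (y axis), grouped and coloured by complex, with the 95% interval from limma as a bar. The medians were -0.15 in complex II, -0.24 in complex III, -0.10 in complex IV subunits, -0.01 in complex IV assembly factors, -0.14 in F1 and -0.23 in Fo, and Cox6a2 at 0.91 is the highest point.

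Counts of lower members differed by complex. At an unadjusted p under 0.05, 6 of 9 members of complex III, 7 of 13 tested members of the ATP synthase, 2 of 4 of complex II and 5 of 15 tested subunits of complex IV were lower. None of the 9 assembly factors of complex IV was. Over all tested genes 9.7% were lower at that threshold, and 255 of 1148 tested genes with transcripts under 1000 bases were. The differences between the counts by complex were not tested. In the sum of read equivalents over F1 and Fo members, the wild-type libraries stood at 41190, 44697 and 46138 and the mutant libraries at 38490, 39523 and 40492, which did not overlap. The sum over complex II members was 9509 to 9822 in the wild type and 8968 to 9488 in the mutants, again without overlap, though 9509 and 9488 lie close. Sdha, whose groups overlapped, held the largest part of the complex II sum. Atp5b, whose groups overlapped, and Atp5a1 held the largest parts of the F1 and Fo sum. Among single tested genes, 12% were lower in the mutants without overlap. The sums over complex III overlapped, with 11200 to 12309 in the wild type and 10431 to 11281 in the mutants, and so did those over complex IV with its assembly factors, with 18596 to 20677 and 18018 to 19134. In bulk RNA, fewer cells of a type and less RNA per cell cannot be told apart.

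Promoters are shown for 5 members because many nuclear genes of the respiratory chain are known targets of NRF-1 and of GABP, also called NRF-2. In the authors' deposited motif table for genes lower in the mutants, GABPA sites had a fold enrichment of 2.38, with Atp5k and Uqcrh among the listed genes. NRF-1 sites had a fold enrichment of 1.94 in that table, with Atp5k, Atp5o and Uqcr10 listed. In the authors' deposited motif table for genes higher in the mutants, NRF-1 sites had a fold enrichment of 1.49 and GABPA sites 1.17, with no member listed under either. The sequences are from RefSeq on GRCm38.p6, 250 bases before to 50 bases after the gene's start, all on the minus strand and written 5′ to 3′ in the gene's direction. Capitals mark matches on either strand to the letters taken here for NRF-1, which are GCGC, then A and any base, then GCGC, or to CCGGAAG, the core taken here for GABP, which reads CTTCCGG on the other strand. The letters for the different factors do not overlap one another in these windows. Atp5k and Sdhd carry both, Uqcrh and Atp5o carry 1 each, and Cox8a, a member that was higher in the mutants, is shown for contrast. The NRF-1 letters are not particular to lower members. Among members not printed, Uqcrc1, with every mutant library above every wild-type library, and Sdha, whose groups overlapped, carry them. Cox6a1 and Atp5h, whose groups also overlapped, carry the letters of both factors.
Atp5k (chr5:108434350-108434649): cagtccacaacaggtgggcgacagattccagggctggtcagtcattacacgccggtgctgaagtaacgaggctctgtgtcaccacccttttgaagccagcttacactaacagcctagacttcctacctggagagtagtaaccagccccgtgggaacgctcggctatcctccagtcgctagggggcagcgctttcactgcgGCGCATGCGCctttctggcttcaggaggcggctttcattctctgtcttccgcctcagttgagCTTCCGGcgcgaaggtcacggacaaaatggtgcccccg
Sdhd (chr9:50603800-50604099): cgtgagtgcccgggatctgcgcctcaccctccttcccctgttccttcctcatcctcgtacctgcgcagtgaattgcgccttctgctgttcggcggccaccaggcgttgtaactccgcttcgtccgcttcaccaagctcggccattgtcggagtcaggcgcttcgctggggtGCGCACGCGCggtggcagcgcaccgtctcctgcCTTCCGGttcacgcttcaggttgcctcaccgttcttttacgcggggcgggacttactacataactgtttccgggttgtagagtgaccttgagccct
Uqcrh (chr4:116075021-116075320): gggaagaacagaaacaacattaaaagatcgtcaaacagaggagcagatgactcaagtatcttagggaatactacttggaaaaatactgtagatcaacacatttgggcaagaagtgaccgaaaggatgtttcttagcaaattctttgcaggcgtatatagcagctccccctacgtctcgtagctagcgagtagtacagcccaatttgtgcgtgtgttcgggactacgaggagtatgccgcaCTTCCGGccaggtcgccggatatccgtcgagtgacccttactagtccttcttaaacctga
Atp5o (chr16:91931581-91931880): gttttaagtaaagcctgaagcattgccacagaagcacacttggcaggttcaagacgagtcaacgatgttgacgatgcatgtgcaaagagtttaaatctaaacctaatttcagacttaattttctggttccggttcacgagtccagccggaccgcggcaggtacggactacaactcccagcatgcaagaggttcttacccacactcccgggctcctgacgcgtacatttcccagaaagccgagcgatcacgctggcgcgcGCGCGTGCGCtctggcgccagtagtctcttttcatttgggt
Cox8a (chr19:7217567-7217866): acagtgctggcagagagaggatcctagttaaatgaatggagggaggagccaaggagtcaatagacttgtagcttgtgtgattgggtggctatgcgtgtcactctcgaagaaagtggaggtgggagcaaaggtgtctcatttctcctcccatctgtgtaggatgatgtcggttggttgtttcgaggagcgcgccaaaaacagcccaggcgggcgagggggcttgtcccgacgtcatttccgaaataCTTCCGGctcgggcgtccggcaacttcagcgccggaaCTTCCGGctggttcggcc

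In Atp5k the NRF-1 letters lie at bases 201 to 210 of the window, where the site GCGCATGCGC reads the same on both strands, and the GABP letters lie at bases 263 to 269, just past the start. In Sdhd the NRF-1 letters lie at bases 172 to 181 and the GABP letters at 205 to 211. In Uqcrh the GABP letters lie at bases 241 to 247, and in Atp5o the NRF-1 letters lie at bases 260 to 269. The window of Uqcr10, listed by the authors under NRF-1, holds no match to the NRF-1 letters. Cox8a holds the GABP letters at 246 to 252 and again at 283 to 289, so the letters are present in members of both directions. Over the 45 members with a RefSeq promoter, the NRF-1 letters were found in 10 (22.2%), against 10.3% of 11945 tested genes and 5.19% of all 27025 genes with a promoter there. CCGGAAG was found in 17 of 45 (37.8%), against 17.6% and 9.93%. AAGATGG, the letters taken for YY1, was found in 7 of 45 (15.6%), against 7.89% and 7.28%. In the authors' deposited motif tables, YY1 sites had a fold enrichment of 2.26 for lower genes and 2.27 for higher genes. Atp5e and Uqcrh were listed under YY1 for lower genes, and their windows hold no YY1 letters. A match of letters is a description and no evidence that a factor binds there.

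Complex II has 4 subunits, and all 4 had a negative log2 change. Sdhd, the smaller of its membrane anchors, had 814, 989 and 973 read equivalents in the wild-type libraries and 611, 751 and 760 in the mutant libraries. Every mutant library lay below every wild-type library, and the log2 change was -0.39 (SE 0.11, limma adjusted p = 0.129). Sdhc, the other membrane anchor, had 801, 803 and 776 against 690, 691 and 738, also without overlap. Its log2 change was -0.17 (SE 0.07, limma adjusted p = 0.243). Sdhb, the iron-sulphur subunit, had 1948, 2036 and 2076 in the wild type and 1816, 1756 and 1934 in the mutants. These groups did not overlap either, at a log2 change of -0.14 (SE 0.07, limma adjusted p = 0.281). Sdha, the flavoprotein that oxidizes succinate, had 5947, 5974 and 5997 in the wild type and 5852, 5833 and 6055 in the mutants. Its groups overlapped, and its interval for the log2 change ran from -0.14 to 0.11.

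Complex III held the highest share of members that were lower at an unadjusted p under 0.05 among complexes II to V before any correction for base composition. Uqcrb, a small subunit near the ubiquinone site, had 272, 405 and 345 read equivalents in the wild type and 181, 195 and 244 in the mutants. All mutant libraries lay below all wild-type libraries, and the mutant mean was 60.7% of the wild-type mean (log2 change -0.71, SE 0.16, limma adjusted p = 0.109). Uqcr11, a small accessory subunit, had 502, 529 and 542 against 244, 358 and 473, again without overlap. Its log2 change was -0.60 (SE 0.19, limma adjusted p = 0.147). Uqcrfs1, the Rieske iron-sulphur protein that carries electrons towards cytochrome c1, had 1092, 1322 and 1363 against 791, 942 and 1126. The third mutant library lay above the first wild-type library, and the log2 change was -0.41 (SE 0.13, limma adjusted p = 0.144).

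The core subunits of complex III differed among themselves. Uqcrc2, a large core subunit on the matrix side, had 3353, 3898 and 3631 read equivalents in the wild type and 3326, 3160 and 3138 in the mutants. The groups did not overlap, at a log2 change of -0.17 (SE 0.07, limma adjusted p = 0.216). Its partner Uqcrc1 had 2694, 2568 and 2600 against 3051, 2784 and 2797, so every mutant library lay above every wild-type library. The log2 change of Uqcrc1 was 0.13 (SE 0.06, limma adjusted p = 0.282). Cyc1, cytochrome c1, had 846, 892 and 945 against 884, 858 and 918, with overlapping groups and an interval from -0.17 to 0.15. The remaining members were the hinge protein Uqcrh, Uqcr10 and Uqcrq, with log2 changes of -0.24, -0.32 and -0.09. Their groups overlapped.

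Cytochrome c, the soluble carrier between complexes III and IV, is encoded by Cycs. It had 703, 902 and 830 read equivalents in the wild type and 429, 654 and 757 in the mutants. The third mutant library lay above the first wild-type library, and the log2 change was -0.44 (SE 0.18, limma adjusted p = 0.224).

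Complex IV showed the widest range of changes. Cox4i1, the most abundant of its nuclear subunits in read equivalents and the ubiquitous form of subunit 4, had 3959, 4238 and 4393 in the wild type and 3786, 3937 and 4214 in the mutants. The groups overlapped, with an interval for the log2 change from -0.23 to 0.07. Cox5a, a subunit on the matrix side, had 575, 721 and 694 against 293, 471 and 530. Those groups did not overlap (log2 change -0.66, SE 0.19, limma adjusted p = 0.131). Cox7c, a small membrane subunit, had 50.5, 60.1 and 51.9 against 9.30, 39.5 and 27.0. Again no library overlapped, and its log2 change of -1.28 was the most negative of all tested members (SE 0.41, limma adjusted p = 0.151). Over Cox7c's transcript, 53.7% of 42-base windows also occur in 4 pseudogenes, and its level is uncertain for that reason.

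Of the members higher in the mutants, 2 with an unadjusted p under 0.05 belong to complex IV. Cox6a2, known as the heart and muscle form of subunit 6a and also known from parvalbumin interneurons, had 15.3, 17.4 and 17.5 read equivalents in the wild type and 42.4, 26.8 and 29.2 in the mutants. The mutant mean was 196% of the wild-type mean and no library overlapped (log2 change 0.91, SE 0.26, limma adjusted p = 0.131). The level was low, and it was highest in the first mutant library. Pvalb, the parvalbumin gene, had 340, 406 and 425 in the wild type and 265, 490 and 373 in the mutants, with overlapping groups. The other 4 of 5 interneuron markers had positive log2 changes. Of these, Sst had 1345, 1471 and 1611 against 2329, 1647 and 1710, without overlap. Slc32a1 had 318, 296 and 273 against 398, 367 and 344, also without overlap, whereas Gad1 and Gad2 overlapped. The part of interneurons in the Cox6a2 values was not tested. The muscle markers Ckm and Tnnt3 stayed at or below 5.26 in every library, with Ckm at 0 in 2 mutant libraries and Tnnt3 at 0 in 1. Acta1, a muscle actin, had 74.8 to 95.4 in the wild type and 51.0 to 83.0 in the mutants, and the summed level of the 3 muscle markers was 76.7 to 98.3 against 56.3 to 84.8. Cox8a, the ubiquitous form of subunit 8, had 887, 859 and 1007 against 1421, 971 and 1087. The second mutant library lay below the third wild-type library, and the log2 change was 0.32 (SE 0.13, limma adjusted p = 0.21).

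The other tested subunits of complex IV had log2 changes from -0.47 (Cox7a2) to -0.01 (Cox7a1), all negative. Cox7a2, Cox6c and Cox7a2l had an unadjusted limma p under 0.05, at log2 changes of -0.47, -0.33 and -0.26. Cox7a2l is related in sequence to subunit 7a and known for a part in respiratory supercomplexes. Cox5b, Cox6a1, Cox6b1 and Cox7b, which are widely expressed subunits, had log2 changes of -0.10, -0.06, -0.03 and -0.10.

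Assembly factors of complex IV, which insert haem and copper or guide subunits into the membrane but are no part of the finished enzyme, had 5 negative and 4 positive log2 changes. Cox15, a haem A synthesis enzyme, had 496, 562 and 575 read equivalents in the wild type and 490, 560 and 524 in the mutants. Those groups overlapped, with an interval from -0.25 to 0.15. Cox11, which delivers copper, had 326, 365 and 335 against 225, 350 and 279 (log2 change -0.29, SE 0.14, limma adjusted p = 0.31). Cox20, a chaperone of a mitochondrially encoded subunit, had 329, 370 and 320 against 240, 363 and 282, also with overlap. Cox10, the enzyme that makes haem O, had 209, 229 and 224 against 257, 232 and 264. Every mutant library of Cox10 lay above every wild-type library (log2 change 0.18, SE 0.10, limma adjusted p = 0.368). Cox17, a copper chaperone, had 411, 463 and 403 against 385, 435 and 444, with an interval from -0.23 to 0.20.

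In F1 of the ATP synthase, 4 of 5 members had a negative log2 change. Atp5e, the epsilon subunit of the central stalk, had 359, 434 and 491 read equivalents in the wild type and 227, 330 and 305 in the mutants. The groups did not overlap, and the mutant mean was 67.1% of the wild-type mean (log2 change -0.58, SE 0.15, limma adjusted p = 0.125). Atp5c1, the gamma subunit that forms the rotor shaft, had 3470, 3958 and 4071 against 2819, 3139 and 3458, also without overlap. Its log2 change was -0.29 (SE 0.09, limma adjusted p = 0.142). Atp5a1, the alpha subunit of the ring, had 12640, 13431 and 14007 against 12240, 12202 and 11981. Every mutant library lay below every wild-type library, at a log2 change of -0.14 (SE 0.06, limma adjusted p = 0.265). Atp5b, the catalytic beta subunit, had 14396, 15828 and 16009 against 14701, 14171 and 14520, with overlap and an interval from -0.23 to 0.05. Atp5d, the delta subunit, had a positive log2 change of 0.15, and its groups overlapped.

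In Fo, Atp5k, the e subunit known for its place where ATP synthase dimers meet, had 301, 394 and 308 read equivalents in the wild type and 207, 187 and 230 in the mutants. The groups did not overlap, the mutant mean was 62.2% of the wild-type mean, and the log2 change of -0.68 had the smallest p of any member (SE 0.13, limma adjusted p = 0.109). Atp5g3, 1 of 3 genes for the c subunit of the rotor ring, had 740, 897 and 865 against 410, 544 and 718. No library overlapped, at a log2 change of -0.61 (SE 0.17, limma adjusted p = 0.129). Atp5f1, the b subunit of the peripheral stalk, had 3953, 4495 and 4580 against 2724, 3803 and 3795. These did not overlap either (log2 change -0.35, SE 0.12, limma adjusted p = 0.165). Atp5o, which links the peripheral stalk to F1, had a log2 change of -0.21 without overlap, with 55.7% of its 42-base windows shared with other annotated genes. Atp5j, Atp5j2 and Atp5h, of the stalk and membrane part, had log2 changes of -0.15, -0.25 and 0.05 with overlapping groups.

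**Figure D2:**
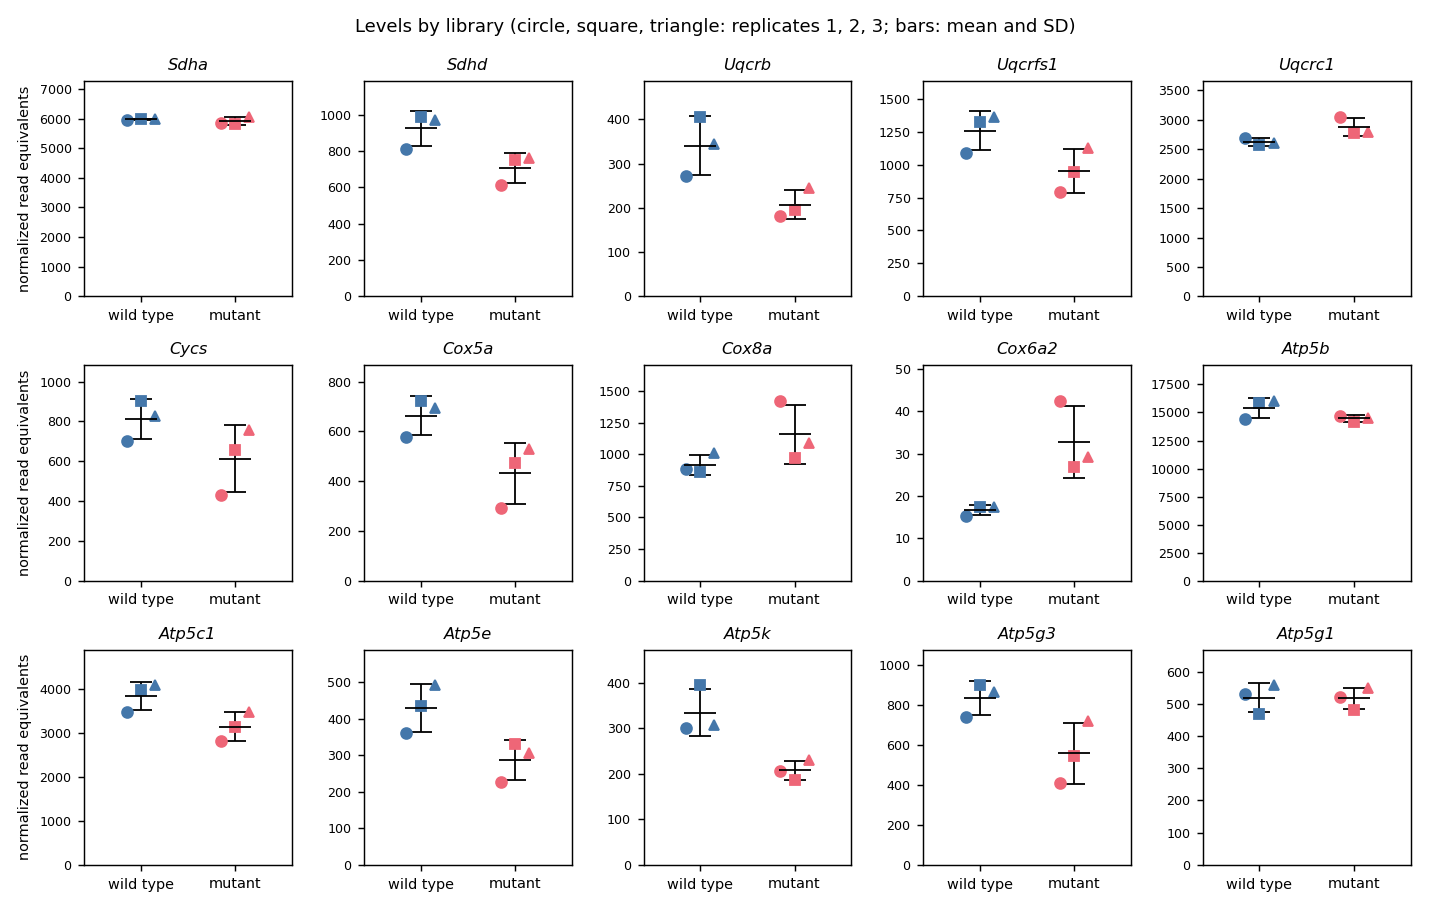
Normalized read equivalents (y axis, from 0) of 15 members in each library, wild type in blue and mutant in red, with circle, square and triangle for replicates 1, 2 and 3 and bars for the mean and SD (n = 3). Atp5k, Uqcrb, Sdhd, Atp5e and Atp5c1 show all mutant points below all wild-type points, Cox6a2 and Uqcrc1 show the reverse, and Sdha and Atp5g1 overlap.

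Symbols of the Atp5 family do not all name subunits. Atp5s, a factor linked to coupling of the synthase, had 306, 332 and 329 read equivalents in the wild type and 223, 309 and 272 in the mutants. The second mutant library lay above the first wild-type library (log2 change -0.27, SE 0.12, limma adjusted p = 0.264). Atp5sl, its paralog, had 381, 376 and 421 against 465, 383 and 395, with an interval from -0.15 to 0.30.

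Pairs of genes for alternative forms of a subunit were compared as log2 ratios within each library, where a factor common to the library cancels. The exact two-sided permutation test over 3 against 3 libraries cannot give a p below 0.1. Of 6 ratios, 4 reached that smallest p, which became 0.15 after Benjamini-Hochberg adjustment over the 6. Cox6a2 relative to Cox6a1, the form used in most tissues, was 0.585%, 0.766% and 0.641% per base in the wild type and 1.91%, 1.11% and 1.11% in the mutants. The log2 ratio was higher in the mutants by 0.97, from -6.91 ± 0.19 to -5.94 ± 0.44 (SD, n = 3). Cox6a1 itself had 2193, 1907 and 2289 read equivalents against 1869, 2035 and 2209, so the numerator carried the difference. Cox7a1, the heart and muscle form of subunit 7a, had 14.1 ± 1.29 read equivalents against 14.2 ± 3.67 (SD, n = 3), and Cox7a2 had 963, 1111 and 1187 against 592, 799 and 1009. The log2 ratio of Cox7a1 to Cox7a2 was higher in the mutants by 0.46, and here the denominator carried the difference.

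The c subunit genes make the same mature protein from different precursors. Atp5g1 had 530, 470 and 557 read equivalents in the wild type and 520, 483 and 549 in the mutants, with an interval for the log2 change from -0.21 to 0.20. Per base, Atp5g1 was 86.9%, 63.5% and 78.2% of Atp5g3 in the wild type and 154%, 108% and 92.8% in the mutants. The log2 ratio was higher in the mutants by 0.61, from -0.68 ± 0.23 to -0.07 ± 0.37 (SD, n = 3), with the difference on the side of Atp5g3. Of Atp5g1's 42-base windows 66.7% are shared with other annotated genes, and none of Atp5g3's are. Atp5g2 was at 0.705 to 6.10 in all libraries, with 87.5% of its windows shared, and its ratio to Atp5g3 gave an exact permutation p of 0.8.

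Cox8b, the heart and muscle form of subunit 8, had 16.6, 2.28 and 5.82 read equivalents in the wild type and 1.85, 1.05 and 2.83 in the mutants. The mutant minus wild-type difference of its log2 ratio to Cox8a was -1.70. Wild-type libraries 1 and 3 were high. These are also the libraries high in choroid plexus markers: Ttr, the transthyretin gene, stood at 48923, 275 and 17849 in the wild type and at 2199, 628 and 621 in the mutants. All 6 choroid plexus markers had a negative log2 change, their summed level was 770 to 53248 in the wild type and 1118 to 2718 in the mutants, and none was at 0. The part of choroid plexus tissue in the Cox8b values was not tested. Cox4i2, the form of subunit 4 known from lung, had 14.3 ± 0.726 against 13.3 ± 3.73 (SD, n = 3), and its ratio to Cox4i1 gave an exact permutation p of 1.

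Levels between genes were compared per 1000 transcript bases, with lengths from GRCm38 transcripts. In the wild type, Atp5b was highest at 8043 ± 461 read equivalents per 1000 bases (SD, n = 3). Cox4i1 at 5634 ± 295 and Atp5a1 at 5406 ± 278 followed, and these neighbours differed by less than their SD. Cox6c and Cox6a1 came next at 3965 ± 479 and 3729 ± 348, again within their SD of each other. Sdha stood at 2059, Uqcrc2 at 1913 and Uqcrc1 at 1585. Of small subunits that were lower in the mutants at an unadjusted p under 0.05, Uqcr10 stood at 1938, Atp5e at 1017, Atp5k at 902 and Uqcrb at 637. Assembly factors from Cox11 to Cox10 stood between 75.8 and 279, with Cox17, Cox20, Cox16 and Cox14 above them. The tissue-restricted forms Cox7a1, Cox6b2, Cox6a2, Cox8b and Cox4i2 stood between 19.7 and 35.8. Atp5l at 12.4 and Atp5g2 at 5.69 were lower still although both encode subunits of the synthase that most tissues express, and 85.1% and 87.5% of their windows are shared with other annotated genes. Cox7b2 stood at 8.33, and Cox8c was listed at 0 in all libraries.

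**Figure D3:**
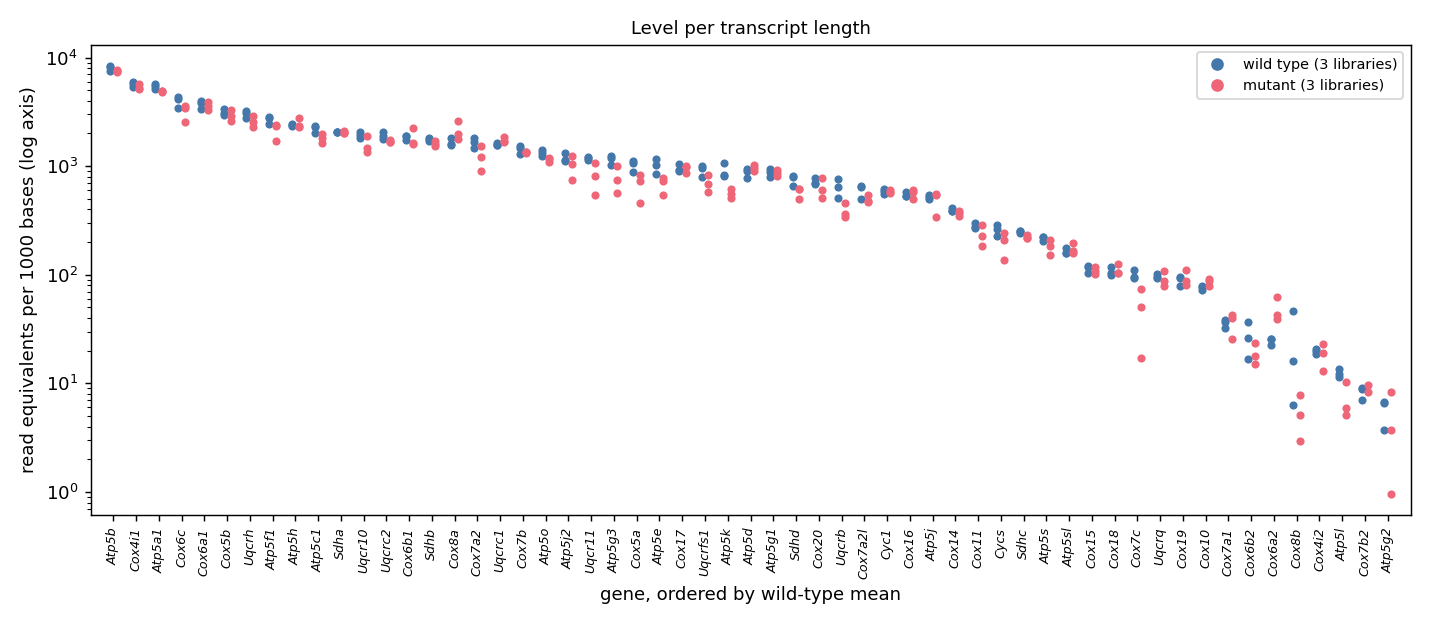
Read equivalents per 1000 transcript bases (y axis, log scale) in each library for the 57 members with a value above 0, ordered by wild-type mean, wild type in blue and mutant in red; points at 0 are left out. Atp5b leads at 8043 and Atp5g2 closes the order at 5.69.

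The first mutant library was the lowest of the 6 for 28 of the 53 tested members, and the third wild-type library was the highest for 20. The mean log2 deviation of the members from their own 6-library mean was 0.01, 0.13 and 0.14 in the wild-type libraries and -0.20, -0.09 and 0.01 in the mutant libraries. The third mutant library thus stood level with the first wild-type library. Without the first mutant library 16 members were lower at an unadjusted p under 0.05, against 7.23% of all tested genes in the same fit. Without the second wild-type library 14 were lower, against 6.12%, and without the third wild-type library 10, against 5.57%. The log2 change stayed negative for 39 to 44 members when each library was left out in turn.

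**Figure D4:**
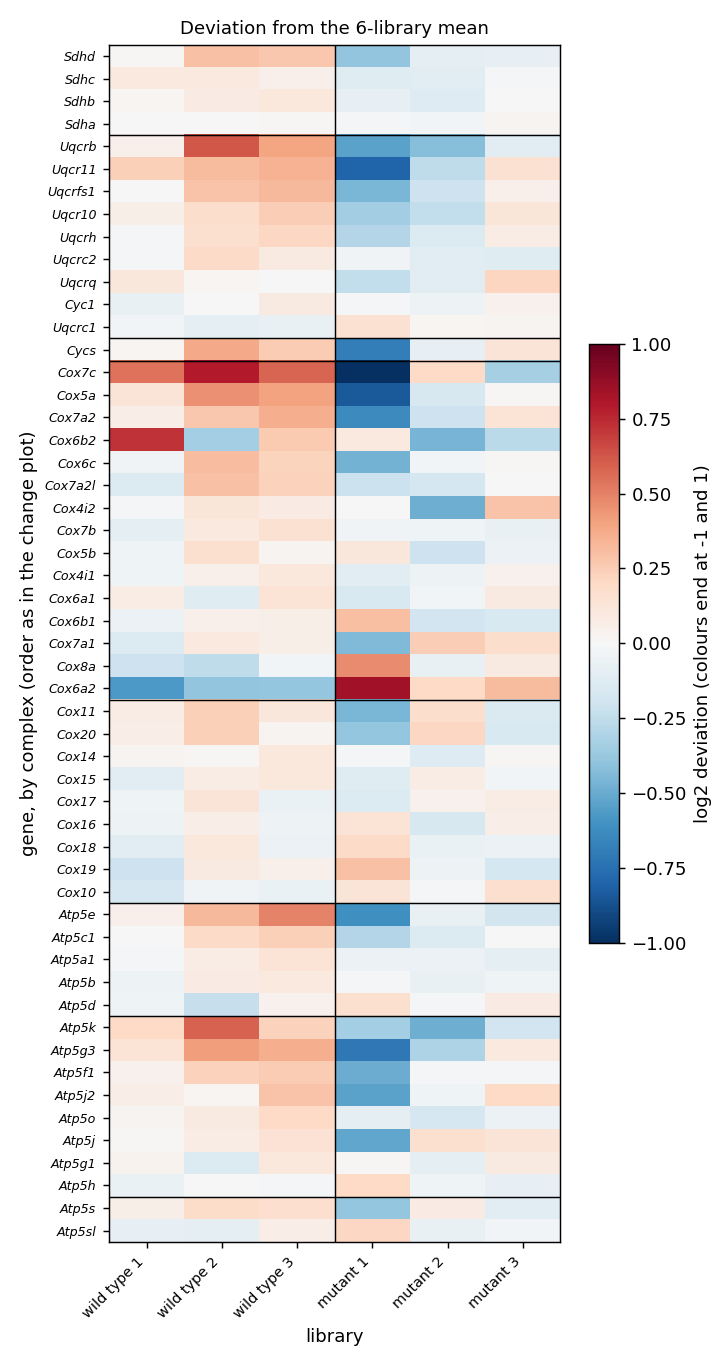
Log2 deviation of each tested member (rows, by complex) from its own 6-library mean in each library (columns), red above and blue below, with colours ending at -1 and 1. The first mutant library is the lowest for 28 of 53 members, whereas Cox6a2, Cox8a and Cox10 are red there, and the third mutant library is near 0 with a mean of 0.01.

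Base composition and transcript length moved with the change. Across the 53 tested members, Spearman's rho between log2 change and GC content was 0.35, and between log2 change and length 0.26. Over 15449 tested genes with a matched transcript, these were 0.36 and 0.20. Genes share the same 6 libraries and are not independent. Members with GC content under 52% had a median log2 change of -0.23 (n = 32), against -0.07 over 9133 tested genes of that GC content. Members at 52% or more had -0.06 (n = 21), against 0.06 over 6316 such genes. Members with transcripts under 1000 bases had a median of -0.18 (n = 30), against -0.14 over 1148 tested genes of that length. Members of 1000 bases or more had a median of -0.14 (n = 23), against -0.01 over 14301 such genes. The GC trend was strongest in the second wild-type library (Spearman correlation of deviation with GC -0.48) and the first mutant library (0.43).

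After each library was corrected for GC content and length with a spline, the median over the members was -0.06, against -0.02 over 15449 genes in the same fit. The log2 change was then negative for 34 of 53 members, against 56.1% of those genes. At an unadjusted p under 0.05, 16 members were lower and 5 higher, against 8.98% and 6.95%. The corrected median was -0.15 in complex II and -0.14 in F1, as before the correction, whereas Fo moved from -0.23 to -0.16 and complex III from -0.24 to -0.06. At an unadjusted p under 0.05, 3 of 9 members of complex III were then lower, against 3 of 4 of complex II, 3 of 5 of F1 and 4 of 8 of Fo, so complex III no longer held the highest share. Complex IV subunits then had a median of -0.04 and assembly factors 0.06. The corrected log2 change was -0.47 for Atp5k, -0.40 for Uqcrb, -0.31 for Sdhd, -0.26 for Atp5c1 and 1.01 for Cox6a2. The part of base composition and length in the differences between groups was not tested beyond this correction.

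**Figure D5:**
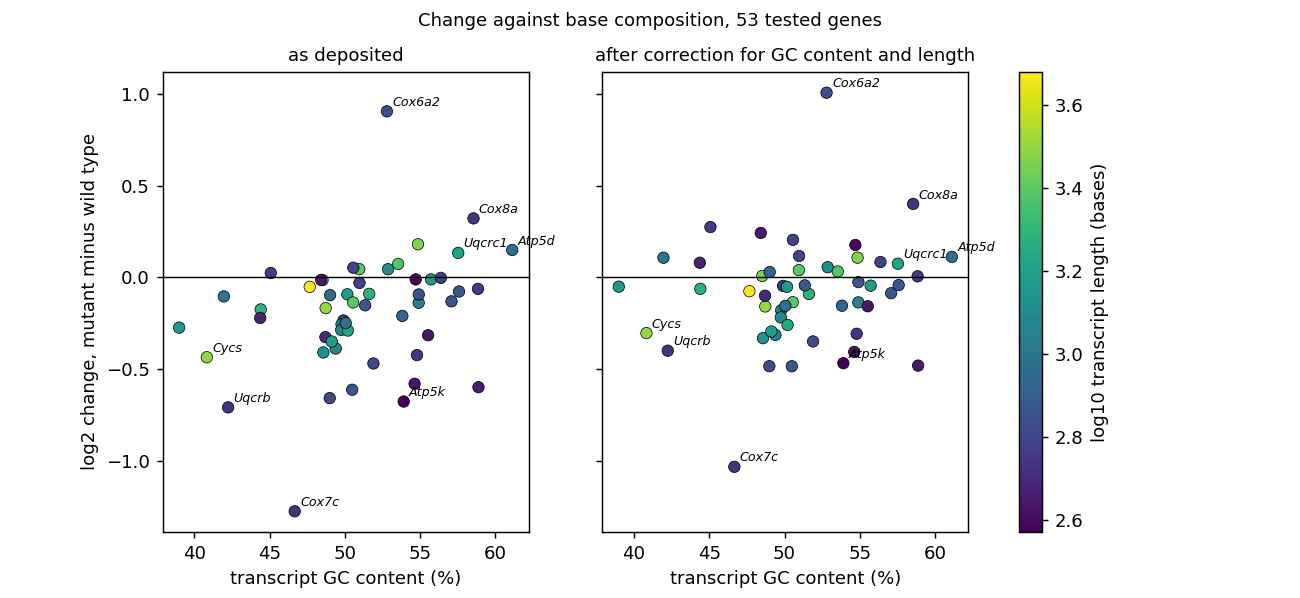
Log2 change (mutant minus wild type, y axis) of the 53 tested members against transcript GC content (x axis, percent), coloured by log10 transcript length, as deposited (left) and after correction for GC content and length (right). The cloud rises with GC content on the left (Spearman correlation 0.35) and less on the right (0.17), while Cox6a2 and Cox8a stay above 0 and Cox7c stays lowest.

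Many members share sequence with transcripts of other annotated genes. Of the 58 members, 23 share over 10% of their 42-base windows with another annotated gene, and 9 share over 50%. Windows were matched on either strand, so genes that overlap a member at its own place count as well as copies elsewhere. For Cox17, Cox16, Cox5b, Uqcrc2 and Cox4i1 no sharing gene was annotated as a pseudogene. The genome outside annotated transcripts was not searched. The 32 tested members at or under 10% had a median log2 change of -0.10, with 24 negative, and 11 were lower and 2 higher at an unadjusted p under 0.05. The 21 tested members above 10% had a median of -0.22, with 19 negative and 11 lower. Over all tested genes 53.2% were negative, and 9.7% were lower and 9.01% higher at that threshold. Sdhd, Uqcrfs1, Atp5e and Atp5g3 share no window with another annotated transcript, and Atp5k shares 8.48%. Uqcrb shares 49.8%, with 5 other genes of which 4 are pseudogenes, Atp5f1 shares 42.1%, Cox5a 37.9%, Uqcrc2 25.1% and Uqcr11 14.6%, so the levels of these members, whose groups did not overlap, are uncertain as that of Cox7c is. How reads that align to several places were handled is not given here.

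Related genes outside the selection were examined as fixed lists. Over all tested genes 53.2% had a negative log2 change, and 9.7% were lower and 9.01% higher at an unadjusted p under 0.05. Complex I feeds electrons from NADH into the chain, and 37 genes with Nduf symbols were listed for it. Of these, 34 had a negative log2 change and 15 were lower at an unadjusted p under 0.05, with a median of -0.25. After the GC and length correction their median was -0.13, with 29 negative and 11 lower. Over all genes in that corrected fit the median was -0.02, with 56.1% negative and 8.98% lower. Ndufa13 had 1036, 1158 and 1192 read equivalents in the wild type and 825, 801 and 798 in the mutants, at a log2 change of -0.48 (limma adjusted p = 0.109). Ndufb2 had a log2 change of -0.56 (limma adjusted p = 0.124). Of 19 genes of mitochondrial import and the outer membrane, 17 were negative and 7 were lower, with Tomm7 at -0.50 and Vdac2 at -0.31. After the GC and length correction 16 of these 19 were negative and 5 were lower. Assembly factors named outside the selection had 21 of 30 negative and 2 lower, Sdhaf4 and Uqcc2, at -0.45 and -0.36. The tricarboxylic acid cycle, whose soluble enzymes lie in the matrix, had 7 of 13 negative, with 2 lower and 1 higher. Within it Mdh2, malate dehydrogenase, had 1690, 1683 and 1797 against 2171, 2054 and 2165 (log2 change 0.31, limma adjusted p = 0.109), and Suclg1 had a log2 change of -0.29. Of 13 regulators of mitochondrial gene expression 10 were negative, with 1 lower and 1 higher. Ppargc1b, a coactivator of mitochondrial genes, had 159, 143 and 133 against 210, 224 and 214 (log2 change 0.57, limma adjusted p = 0.109). Tfam, the mitochondrial DNA packaging and transcription factor, had 683, 773 and 694 against 477, 592 and 632 (log2 change -0.34, limma adjusted p = 0.147). Of 3 genes associated with complex V, 2 were negative and 1 was lower. The log2 change was -0.32 for 2010107E04Rik, the 1 that was lower, -0.42 for Usmg5 and 0.09 for the inhibitor Atpif1.

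Cell type markers moved in part with the groups. Over all tested genes 53.2% had a negative log2 change. Of 8 oligodendrocyte markers 7 were negative, with a median of -0.20 and a summed level of 74412 to 86043 read equivalents in the wild type and 62160 to 78182 in the mutants, lowest in the first mutant library. Of 4 pyramidal neuron markers 3 were positive, with a median of 0.22 and sums of 35850 to 38459 against 41335 to 44226. Of 4 dentate granule neuron markers 3 were negative, with a median of -0.08 and sums of 6281 to 6879 against 5073 to 6536. Of 5 interneuron markers 4 were positive, with a median of 0.07 and sums of 10674 to 11405 against 11591 to 12263. Of 7 astrocyte markers 5 were negative, with a median of -0.06 and sums of 130242 to 135676 against 131370 to 136208. Among them Gfap had 5401, 4988 and 4981 in the wild type and 4572, 4735 and 4591 in the mutants, without overlap. It was the only 1 of the 7 without overlap. Slc1a2 had 105163, 105924 and 101431 against 103177, 108004 and 108657. Of 6 microglia markers 4 were negative, with a median of -0.03 and sums of 3647 to 3889 against 3627 to 3937. Of 5 endothelial markers 1 was negative, with a median of 0.09 and sums of 1754 to 2236 against 2079 to 2201. Of 5 erythrocyte markers 1 was negative, with a median of 0.19 and sums of 5230 to 5525 against 3754 to 8538. Of 3 thalamus markers 1 was negative, with a median of 0.18 and sums of 2096 to 2233 against 2015 to 3044, highest in the second mutant library. No marker of these 9 lists was at 0, and the part of cell composition in the members' values was not tested.

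The authors' deposited ontology table for genes lower in the mutants holds 787 names, 11 of them members: Sdhd, Uqcr10, Uqcrb, Uqcrc2, Uqcrfs1, Uqcrh, Cox7c, Atp5c1, Atp5e, Atp5k and Atp5o. The authors' deposited table for higher genes holds 930 names, with Cox6a2 and Cox8a as members. These 13 are the members at a p under 0.01 in the authors' deposited main table. In the authors' deposited ontology table for lower genes, the respiratory chain complex term had 20 genes at a fold enrichment of 9.68 (Bonferroni p = 1.39e-10). Oxidative phosphorylation had 19 genes at a fold enrichment of 9.19 (Bonferroni p = 1.89e-09) in the authors' deposited table. Members made up 7 of the former and 5 of the latter. In the authors' deposited ontology table, respiratory chain complex III had 5 genes at a fold enrichment of 19.7 (Bonferroni p = 0.0352). The ATP synthase complex had 4 genes at 6.62 (Bonferroni p = 1) in the authors' deposited table, complex IV had 2 and complex II had 1.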

How the data were processed

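Ribosomal RNA was removed before stranded, single-end libraries were made and sequenced, per the labels' protocols. The submitters' processing notes name GSNAP, DESeq2 and mm9; their versions and how reads were counted are not given. The authors deposited a normalized signal per transcript. In a library all values are multiples of 1 step, most often 42, 84 or 126 steps, so the signal was read as base coverage by reads of 42 bases over a size factor, which no source used here states. The authors also deposited a p-value and a score per transcript. The authors also deposited enrichment tables with a fold (ratio), a Bonferroni p-value, counts of genes per term or motif and a corrected motif value. That motif value is a Bonferroni-corrected p-value, p multiplied by the number of motifs with no cap, so it can exceed 1.

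Signal was divided by 42, 1 transcript kept per gene name, and log2(value + 1) tested with limma 3.58.1 in R 4.3.3 (mean-variance trend, two-sided) for the 15717 genes with a mean of at least 10. The log2(value + 1) scale understates the change of low genes. The count model considered in the design was not used, since the values are coverage. The scripts were tested on simulated data. Members and lists were chosen with earlier results of these data known. Named genes were, per complex, the member of highest mean, up to 3 of smallest p, the smallest change, members of opposite sign without overlap and the ratio genes; other members named here were chosen after their values were seen, including those in the promoter set. GENCODE M21 transcripts (GRCm38) gave GC content and length for 98.3% of tested genes, and the shared 42-base windows. Alternatives were other pseudocounts, filters, scalings, transcript choices, array weights, the GC and length correction, the authors' p-values and leaving out libraries. No other per-sample columns were left out.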

Additional observations from a re-analysis of the deposited data

How the results depend on the processing

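Leaving out each library in turn, or the second wild-type and the first mutant library together, gave 0 to 92 genes called lower and 0 to 21 called higher over the whole table, 0 to 1 members called, 10 to 21 members lower and 1 to 2 higher at an unadjusted p under 0.05. Without the second wild-type and first mutant libraries together, 14 members were lower. The 1 member called was Atp5g3, without the third mutant library. Under these omissions the median of complex IV assembly factors ran from -0.051 to 0.048. Log2 changes that crossed 0 ran from -0.14 to 0.25 for Cox7a1, -0.12 to 0.021 for Cox15, -0.053 to 0.11 for Cox17, -0.042 to 0.13 for Atp5sl, -0.078 to 0.051 for Atp5g1, -0.050 to 0.030 for Cyc1 and -0.31 to 0.081 for Cox4i2. The ratio differences of Cox4i2 to Cox4i1 (-0.19 to 0.15) and Atp5g2 to Atp5g3 (-0.19 to 0.44) also crossed 0.

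Array quality weights called 9 members (Atp5c1, Atp5e, Atp5g3, Atp5k, Atp5o, Cox5a, Sdhd, Uqcrb and Uqcrfs1), 343 genes lower and 462 higher, with 1 member higher at an unadjusted p under 0.05; Cox7a1 then stood at 0.10, Cox17 at 0.038 and Atp5sl at -0.016. The authors' p-values called 9 members, 508 genes lower and 718 higher. With the GC and length correction 0 genes were called lower and 5 members were higher at an unadjusted p under 0.05. The median over all members and that of complex III were both -0.062, that of assembly factors was 0.056, and Sdha stood at 0.0077, Cox7a1 at 0.18, Cox20 at 0.080, Cox17 at 0.24, Atp5g1 at 0.084 and Cox6a1 at 0.0060. Quantile normalization called 0 genes lower and gave 0.0029 for the median of assembly factors and for Cox17, 0.082 for Cox7a1 and 0.014 for Atp5g1, and median ratio rescaling gave 0.0044 for Atp5g1. With no filter 0 genes were called lower, and with a mean of at least 50, 1 member was higher at an unadjusted p under 0.05. Without members that share over 10% of windows, an alternative chosen after seeing the data, 24 members were negative, 11 lower, and the medians were -0.092 in complex III, 0.045 in assembly factors and -0.61 in Fo. The cause of these shifts was not tested, and omissions by construction leave fewer libraries or members. Ptchd1 kept its direction and lost its call without the first wild-type library, the third wild-type library or the second mutant library, and with no filter, quantile normalization or the GC and length correction. The other 220 summary values kept their direction or stayed within 1.5 times, and 528 values of single genes kept their direction and side of the threshold. No paired analysis was possible because replicate numbers follow the order of deposit and do not pair libraries. Depth limits the lowest members: those under a mean of 10 were not tested.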
